A study of Mus musculus with 5 samples.

Results

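The phagocyte NADPH oxidase is the enzyme with which macrophages and neutrophils make superoxide. Its catalytic core, cytochrome b558, sits in the membrane and is built of the Cybb and Cyba proteins. In resting cells the organiser Ncf1 and the adaptor Ncf4 wait in the cytosol. On stimulation they move to the core together with a GTP-loaded Rac protein, and electrons then pass from NADPH to oxygen. Loss of a core or cytosolic subunit causes chronic granulomatous disease, in which phagocytes fail to kill several bacteria and fungi. Mutation of RAC2 causes a neutrophil immunodeficiency in patients. In macrophages the same enzyme also acts in the handling of engulfed material.

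The levels of 5 genes of this complex, Cybb, Cyba, Ncf1, Ncf4 and Rac2, were examined out of 21878 genes in the table. They were chosen by name, as subunits of the phagocyte oxidase and its Rac protein, and not by their values. All 5 were found and all 5 passed the filter on low values. Rac1, the other Rac protein that the oxidase can use, was placed in a list of partners.

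The cells were macrophages grown from bone marrow (BMDMs). Replicates 1 and 3 came from Kdm6aF/Y mice, the 2 wild-type samples, and replicates 1, 2 and 3 from Kdm6aF/Y;Lyz2-Cre mice, the 3 Kdm6a-deficient samples. Both groups carried the floxed X-linked Kdm6a allele and both were given lipopolysaccharide (LPS), a bacterial stimulus, so that the groups differed in the Cre recombinase, which was driven from the lysozyme gene Lyz2 of myeloid cells and was absent from the controls. There was no untreated sample and no Cre control without the floxed allele. BMDMs were in general grown from male mice of 10 weeks, with macrophage colony-stimulating factor at 10 ng/ml for 6 days and without it for 3, and polarised with 100 ng/ml LPS for 24 h. The text on RNA-Seq does not say whether this LPS treatment was the one used. Each RNA sample was described as pooled, and no source used here ties the samples to separate mice or cultures, so the p-values speak only of how far these samples spread, and that spread may be technical.

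Levels are given as FPKM, fragments counted on a gene relative to its transcript length and to all mapped fragments. Levels may thus be compared between genes only as far as the transcript lengths used are right. Fold changes are Kdm6a-deficient minus wild-type on the scale log2(FPKM + 1), with the standard error (SE) of limma's fit over 10893 genes and its Benjamini-Hochberg adjusted p, two-sided, called at 0.05. How many reads each sample held is unknown, and the relative depths were 0.946 to 1.09. Every member was well covered. The authors' mean normalised read counts ran from 1903 for Ncf4 to 33312 for Cybb in wild-type BMDMs, a mean that also includes 1 wild-type sample not analysed here.

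Kdm6a itself was low, from 2.91 to 3.72 FPKM in wild-type and from 1.77 to 2.81 FPKM in Kdm6a-deficient BMDMs (log2 fold change −0.38, adjusted p = 0.268 from limma), and its single value covers the deleted part and the rest of the transcript alike. Lyz2, the site of the Cre insertion, fell in limma (log2 fold change −1.10, adjusted p = 0.00722), a call not made in the fits that left out wild-type sample 1, wild-type sample 3, Kdm6a-deficient sample 3 or the filter (adjusted p 0.0759 to 0.154). The macrophage antigen gene Adgre1 was at 734 to 831 FPKM in the 5 samples and Itgam, which encodes CD11b, at 283 to 329 FPKM, so the labelled cell type had its defining markers. Kdm6a-deficient sample 2 stood apart from the other 4 samples. Over 10841 genes its deviations from the gene means fell with transcript length (Spearman rho = −0.60, a description across genes, against 0.0018 to 0.35 in the other 4 samples). The median deviation in this sample was 0.20 for 576 genes with transcripts under 1 kb and −0.11 for 3659 genes over 4 kb, on the log2 scale. The longest transcripts of the members ran from 744 bases for Cyba to 4752 bases for Cybb, so values are also given below without that sample.

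Rac2 was the member that limma called. Rac2, a small GTPase of blood cells that joins and switches on the assembled oxidase, was at 120 and 127 FPKM in wild-type samples 1 and 3 and at 168, 197 and 174 FPKM in Kdm6a-deficient samples 1, 2 and 3. All 3 Kdm6a-deficient samples lay above both wild-type samples, and the gap between the groups was wider than the spread within either. The means were 123 ± 4.67 FPKM (SD, n = 2) and 180 ± 15.0 FPKM (SD, n = 3), a ratio of 1.46. In limma the log2 fold change was 0.54 (SE 0.088, 95% interval 0.33 to 0.74, adjusted p = 0.0197), at rank 243 of the 10893 genes by p.

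Of the 5 oxidase genes, 1 was called higher and none lower in limma, while 2 had an unadjusted p under 0.05. Over all tested genes 3.91% were called in either direction, 1.73% higher and 2.18% lower, and the share of the members, 1 of 5, rests on a single gene. The call of Rac2 was kept without Kdm6a-deficient sample 2, where the log2 fold change was 0.47 and limma's adjusted p 0.0117. It was lost, with the log2 fold change at 0.50, 0.57 and 0.56, without wild-type sample 1, wild-type sample 3 or Kdm6a-deficient sample 3 (adjusted p = 0.112, 0.135 and 0.0957). The median log2 fold change of the 5 members was 0.20, beside 0.0048 over all tested genes.

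**Figure D1:**
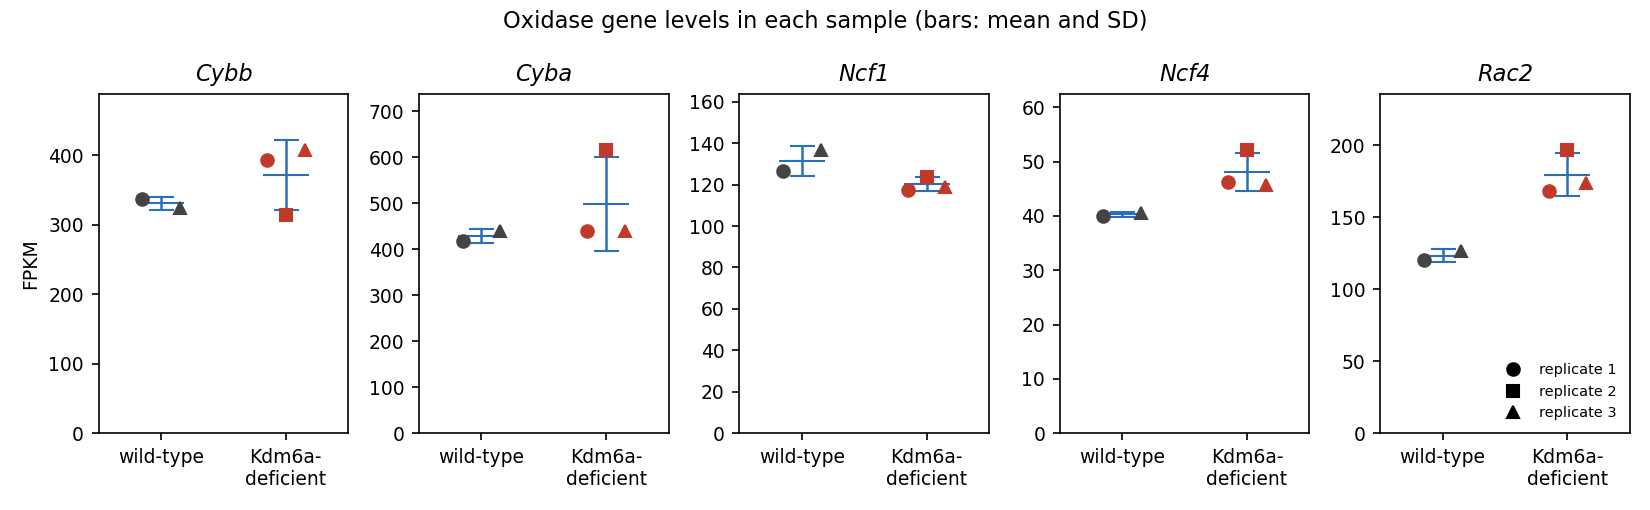
FPKM (vertical axes from 0, each with its own scale) of the 5 oxidase genes in each wild-type sample (grey) and Kdm6a-deficient sample (red), with the mean and SD of each group as blue bars and the replicate number as the marker shape. The 3 Kdm6a-deficient samples sit at 168 to 197 FPKM for Rac2, above 120 and 127 FPKM in wild-type, while for Cybb and Cyba the groups overlap.

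Rac2 has a close relative, Rac1, and reads of one could be counted for the other where their sequences are the same. The coding sequences of both, from GENCODE vM21, are 579 bases long and share 446 bases (77.0%). The longest run of identical bases between any pair of their transcripts was 29. They differ more at the end of the coding sequence than before it. The end encodes the tail that guides each protein to its membrane and the cysteine motif that carries the lipid anchor. Over coding bases 520 to 579 counted from the start codon, 53.3% of bases were identical, against 79.8% in the bases before. The ends are shown because the called gene and its uncalled relative are told apart by such stretches, with the bases that differ in capitals, 28 of 60.
Rac2: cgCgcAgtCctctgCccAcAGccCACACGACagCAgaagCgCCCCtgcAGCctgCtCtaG
Rac1: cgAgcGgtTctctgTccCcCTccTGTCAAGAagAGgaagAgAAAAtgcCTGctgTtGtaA

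Rac1, which is found in nearly all cell types, was at 143 and 144 FPKM in wild-type samples 1 and 3 and at 146, 144 and 146 FPKM in Kdm6a-deficient samples 1, 2 and 3, a narrow band in all 5 samples. Its log2 fold change was 0.021 (SE 0.064, adjusted p = 0.91 from limma), and it turned to −0.036 under quantile normalization. The ratio of Rac2 to Rac1 within each sample was 0.841 and 0.882 in wild-type and 1.15, 1.36 and 1.19 in Kdm6a-deficient BMDMs. By FPKM, Rac1 was thus the higher of the pair in both wild-type samples, and Rac2 in all 3 Kdm6a-deficient samples. The authors' mean normalised read counts in wild-type, with 1 sample not analysed here, were 7151 for Rac1 and 8076 for Rac2. The longest transcripts have 4159 bases for Rac1 and 3038 for Rac2. Which was the more abundant in wild-type thus depends on the lengths used for FPKM and is not settled. An exact permutation test of the ratio of Rac2 to Rac1 gave p = 0.1 (two-sided), which is the smallest p that 2 samples against 3 allow. In bulk RNA, a change in the level per cell and a change in the share of cells that express the gene cannot be told apart.

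By FPKM, the membrane core was the most abundant part of the complex. Cybb, the catalytic subunit that carries the haems and the flavin, was at 337 and 324 FPKM in wild-type samples 1 and 3 and at 392, 314 and 407 FPKM in Kdm6a-deficient samples 1, 2 and 3. Samples 1 and 3 of the Kdm6a-deficient group lay above both wild-type samples and sample 2 lay below them, so the groups overlapped. The means were 331 ± 9.69 FPKM (SD, n = 2) and 371 ± 49.8 FPKM (SD, n = 3), and the log2 fold change was 0.16 (SE 0.12, 95% interval −0.12 to 0.44, adjusted p = 0.581 from limma). The log2 fold change of Cybb was 0.27 without Kdm6a-deficient sample 2 and then passed the threshold (adjusted p = 0.0425 from limma).

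Cyba, which encodes the partner that stabilises the catalytic subunit and docks Ncf1, was at 418 and 439 FPKM in wild-type samples 1 and 3 and at 439, 615 and 440 FPKM in Kdm6a-deficient samples 1, 2 and 3. Here Kdm6a-deficient sample 2 was the high one, and the other Kdm6a-deficient samples were level with wild-type sample 3. The means were 428 ± 15.3 FPKM (SD, n = 2) and 498 ± 101 FPKM (SD, n = 3), and the log2 fold change was 0.20 (SE 0.15, 95% interval −0.16 to 0.56, adjusted p = 0.591 from limma). It was 0.037 without Kdm6a-deficient sample 2. Kdm6a-deficient sample 2, in which short transcripts ran high and long ones low, thus raised the mean of Cyba and lowered that of Cybb. The cause of these values in that sample was not tested. In an alternative added after the data were seen, each sample's trend with transcript length was removed. The deviation of Cyba in Kdm6a-deficient sample 2 from its mean over the 5 samples then went from 0.40 to 0.20, and that of Cybb from −0.17 to −0.088. The log2 fold changes became 0.14 for Cyba and 0.19 for Cybb, and neither was called (adjusted p = 0.335 and 0.222 from limma). Rac2 stayed at 0.54 (adjusted p = 0.00444 from limma).

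**Figure D2:**
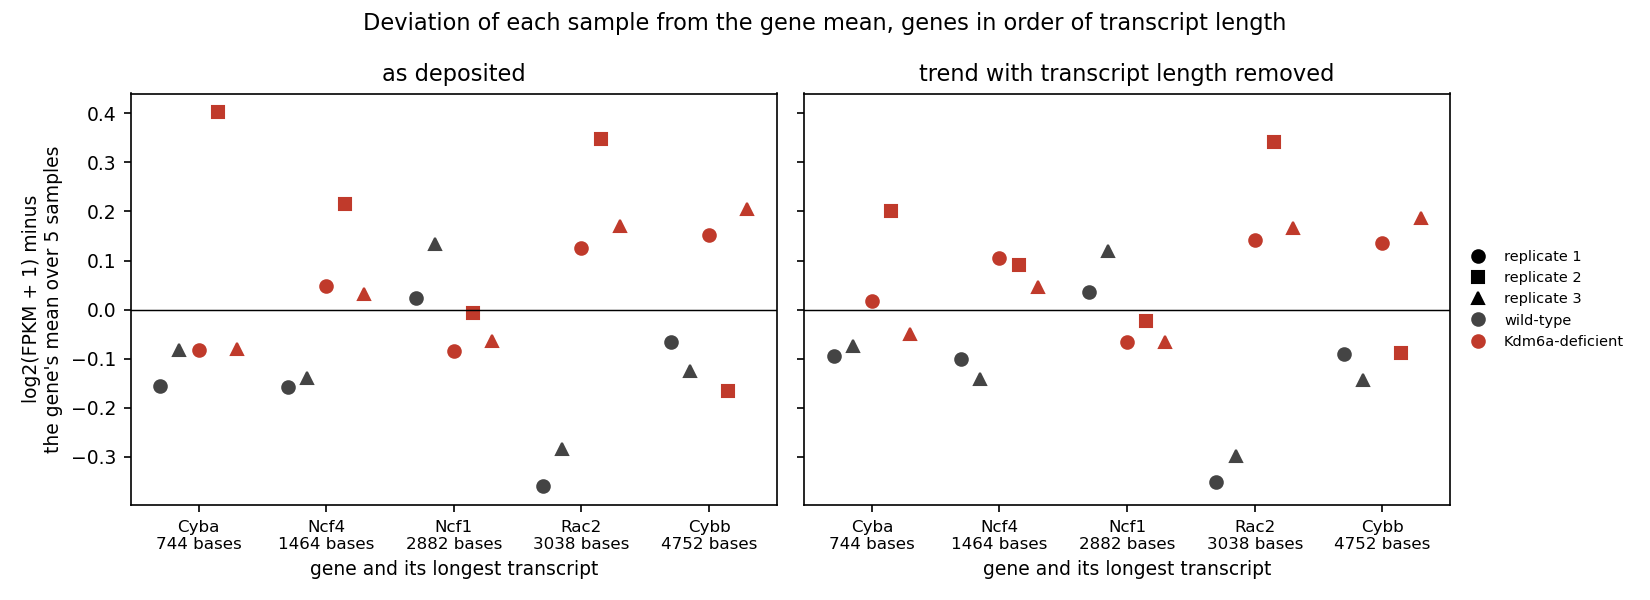
Deviation of log2(FPKM + 1) in each sample from the mean of the gene over the 5 samples, with the 5 genes in order of their longest transcript, before (left) and after (right) removal of each sample's trend with transcript length. Kdm6a-deficient sample 2 (red squares) is at 0.40 for Cyba and −0.17 for Cybb before removal and at 0.20 and −0.088 after it, and for Rac2 all red points lie above the grey ones in both panels.

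The ratio of Cybb to Cyba carried the same split. Wild-type samples 1 and 3 had ratios of 0.808 and 0.737, and Kdm6a-deficient samples 1, 2 and 3 had 0.894, 0.511 and 0.926. Both proteins are needed in equal parts for a stable core, but by FPKM the transcripts were not level in any sample, and Cyba was the higher in all 5. The authors' mean normalised read counts in wild-type, with 1 sample not analysed here, were 33312 for Cybb and 6266 for Cyba. Their longest transcripts have 4752 and 744 bases. Which of the 2 was the more abundant thus depends on the lengths used for FPKM and is not settled.

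Ncf4 and Ncf1, subunits of the cytosol, did not pass the threshold and did not share a direction. Ncf4, the adaptor that binds phosphatidylinositol 3-phosphate on phagosomes, was at 40.0 and 40.5 FPKM in wild-type samples 1 and 3 and at 46.3, 52.1 and 45.7 FPKM in Kdm6a-deficient samples 1, 2 and 3. The groups were apart, with the wild-type pair close together. The means were 40.3 ± 0.374 FPKM (SD, n = 2) and 48.0 ± 3.54 FPKM (SD, n = 3), and the log2 fold change was 0.25 (SE 0.080, 95% interval 0.059 to 0.44). Its adjusted p of 0.174 from limma missed the threshold.

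Ncf1, the organiser whose phosphorylation starts assembly, was at 126 and 137 FPKM in wild-type samples 1 and 3 and at 117, 124 and 119 FPKM in Kdm6a-deficient samples 1, 2 and 3. It was the member whose Kdm6a-deficient samples all lay below wild-type, though the highest of them was close to wild-type sample 1. The means were 132 ± 7.19 FPKM (SD, n = 2) and 120 ± 3.37 FPKM (SD, n = 3), and the log2 fold change was −0.13 (SE 0.071, 95% interval −0.30 to 0.038, adjusted p = 0.422 from limma). Of the 5 members, 3 had groups that did not overlap, Rac2 and Ncf4 with Kdm6a-deficient above and Ncf1 with it below. Over all tested genes 35.9% did not overlap, 16.7% above and 19.2% below, so such an order is common in these 5 samples.

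In wild-type BMDMs the order of the levels by FPKM, which rests on the lengths used, was Cyba, Cybb, Ncf1, Rac2 and Ncf4. Ncf1 and Rac2 were neighbours that did not differ beyond their spread there, at 132 ± 7.19 and 123 ± 4.67 FPKM (SD, n = 2), although Ncf1 was the higher within each sample. In Kdm6a-deficient BMDMs Rac2 stood above Ncf1, at 180 ± 15.0 and 120 ± 3.37 FPKM (SD, n = 3), and these ranges did not meet. Cyba and Cybb kept the leading places, and in Kdm6a-deficient BMDMs their means did not differ beyond their SDs. Ncf4 was the lowest member in all 5 samples.

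Ratios between members within a sample set aside any factor that scales a whole library. The ratio of Ncf1 to Rac2 was 1.05 and 1.08 in wild-type and 0.697, 0.630 and 0.685 in Kdm6a-deficient BMDMs. The ratio of Ncf4 to Rac2 was 0.333 and 0.320 in wild-type and 0.275, 0.265 and 0.263 in Kdm6a-deficient BMDMs, so Rac2 was higher relative to Ncf4 as well. Of 11 ratios computed, the 10 pairs of members and Rac2 to Rac1, the Kdm6a-deficient samples were apart from wild-type in all 4 pairs of a member with Rac2, which share that gene, and in Rac2 to Rac1. They were also apart in 2 of the 6 pairs without Rac2, Cyba to Ncf1, which was 3.21 to 3.30 in wild-type and 3.70 to 4.97 in Kdm6a-deficient BMDMs, and Ncf1 to Ncf4, at 3.16 to 3.37 and 2.38 to 2.60. Exact permutation tests of the 11 gave p from 0.1 to 1, and with 2 samples against 3 none can go below 0.1, before any adjustment.

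**Figure D3:**
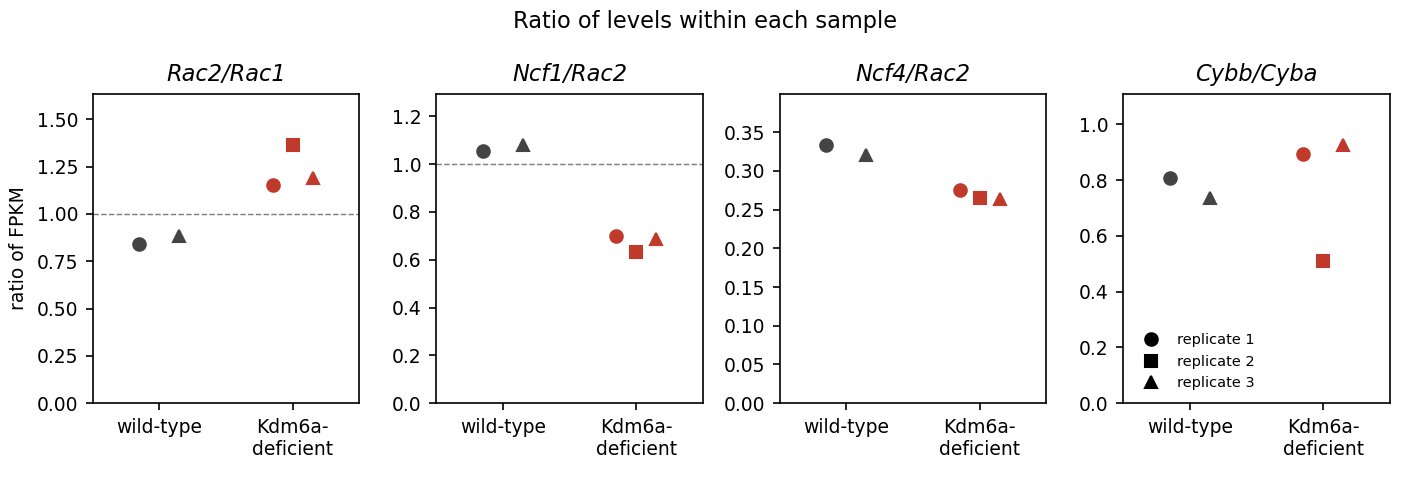
Ratio of FPKM between 2 genes within each sample, with the vertical axes from 0 and the dashed line at a ratio of 1, wild-type in grey and Kdm6a-deficient in red. Rac2 to Rac1 goes from 0.841 and 0.882 to between 1.15 and 1.36, Ncf1 to Rac2 and Ncf4 to Rac2 are lower in all 3 Kdm6a-deficient samples, and Cybb to Cyba overlaps, with Kdm6a-deficient sample 2 at 0.511.

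Ncf4 and Rac2 lie on the same chromosome, 15, with 297 kb between the ends that face each other in the RefSeq gene table of GRCm38.p6. Cybb is on chromosome X, as Kdm6a is, Cyba on 8 and Ncf1 on 5. From Ncf4 to Rac2 the table holds 12 protein-coding genes with both ends counted, of which 8 were tested and 1, Rac2, was called. Next to Ncf4 are Csf2rb2 and Csf2rb, near-identical receptor genes whose reads the counting could have split, with log2 fold changes of 0.13 and 0.23 (adjusted p = 0.391 and 0.151 from limma). C1qtnf6, a secreted C1q-related protein and the tested gene of this stretch that lies next to Rac2, was at 23.3 and 24.1 FPKM in wild-type and 17.8, 19.3 and 19.3 FPKM in Kdm6a-deficient BMDMs, the opposite order (log2 fold change −0.32, adjusted p = 0.0664 from limma). The 6 tested genes between the 2 members, C1qtnf6 included, lay between −0.32 and 0.31 in log2 fold change, on both sides of 0.

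The partners of the oxidase that were tested, 7 of 7, gave no call in limma, with 3 below 0.05 before adjustment and a median log2 fold change of 0.19. Beside Rac1 the list held Cybc1, a chaperone of the core, Rap1a, a GTPase found with the core, Hvcn1, the proton channel that balances the charge the enzyme moves, Nrros, which limits the amount of the core, and Arhgdia and Arhgdib, which hold Rac proteins in the cytosol. All 7 had a log2 fold change above 0, from 0.021 to 0.27 (Rac1 turned below 0 under quantile normalization). In 5, Rac1 among them, all 3 Kdm6a-deficient samples were above both wild-type samples. Over all tested genes 51.5% had a log2 fold change above 0, and 16.7% had all 3 Kdm6a-deficient samples above. The highest, named after its value was seen, was Arhgdib, the Rac inhibitor of blood cells, at 199 and 196 FPKM in wild-type and 220, 261 and 235 FPKM in Kdm6a-deficient BMDMs (adjusted p = 0.19 from limma). The list again had no call without Kdm6a-deficient sample 2, and with the length trend removed it had 1, higher.

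Other members of the oxidase family were close to absent. Of 9 genes of other NADPH oxidases and their organisers, none reached the filter of 1 FPKM in at least 2 samples, 3 were listed at 0 in all 5 samples, and the sum of all 9 was 1.03 to 1.63 FPKM. The single value above 1 FPKM belonged to Nox4, named after its values were seen, at 1.16 FPKM in wild-type sample 1. Cybb alone was at 314 to 407 FPKM in the same samples.

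Among kinases, exchange factors and lipid enzymes that act on the oxidase, 2 of 18 tested genes were called higher and none lower. Over all tested genes 1.73% were called higher and 2.18% lower. The median log2 fold change of the list was 0.14, beside 0.0048 over all tested genes. Pik3r5, a regulatory subunit of phosphoinositide 3-kinase gamma, was at 31.1 and 32.2 FPKM in wild-type and 42.3, 43.9 and 42.9 FPKM in Kdm6a-deficient BMDMs. Its groups were tight and apart (log2 fold change 0.43, SE 0.066, adjusted p = 0.0154 from limma). Syk, the kinase that couples Fc and lectin receptors to the oxidase, was at 28.9 and 31.0 FPKM in wild-type and 40.0, 37.4 and 41.1 FPKM in Kdm6a-deficient BMDMs (log2 fold change 0.39, SE 0.075, adjusted p = 0.0383 from limma). Both calls held without Kdm6a-deficient sample 2. Both were lost without wild-type sample 1, wild-type sample 3 or Kdm6a-deficient sample 3 (adjusted p 0.0978 to 0.137 for Pik3r5 and 0.185 to 0.21 for Syk). Syk was lost in 3 more alternatives, without Kdm6a-deficient sample 1, with no filter and under quantile normalization (adjusted p = 0.113, 0.0548 and 0.0549 from limma). The other 16 genes of this list, which included protein kinases C, Vav1 and p21-activated kinases, lay between −0.17 and 0.25 in log2 fold change.

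Of 9 transcription factors known to act on oxidase subunit genes, all tested, limma called none, and 4 were below 0.05 before adjustment, with a median log2 fold change of 0.038. The 3 named here were chosen after their values were seen. Spi1, which encodes PU.1, the myeloid factor that drives Cybb and other subunit genes, was at 66.9 and 74.0 FPKM in wild-type and at 83.1, 106 and 92.7 FPKM in Kdm6a-deficient BMDMs. Its groups were apart, with a log2 fold change of 0.41 (SE 0.11, adjusted p = 0.112 from limma). Irf8, which works with PU.1 at the Cybb promoter, was at 22.9 and 23.3 FPKM in wild-type and 20.0, 21.7 and 19.6 FPKM in Kdm6a-deficient BMDMs, the opposite order (log2 fold change −0.17, adjusted p = 0.312 from limma). Cebpa, a factor of early myeloid cells, had a log2 fold change of −0.30, with an adjusted p of 0.198 in limma. The list had 1 call, lower, without Kdm6a-deficient sample 2, and 1, Spi1, with the length trend removed, where its log2 fold change was 0.38 and its adjusted p 0.0263 in limma.

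**Figure D4:**
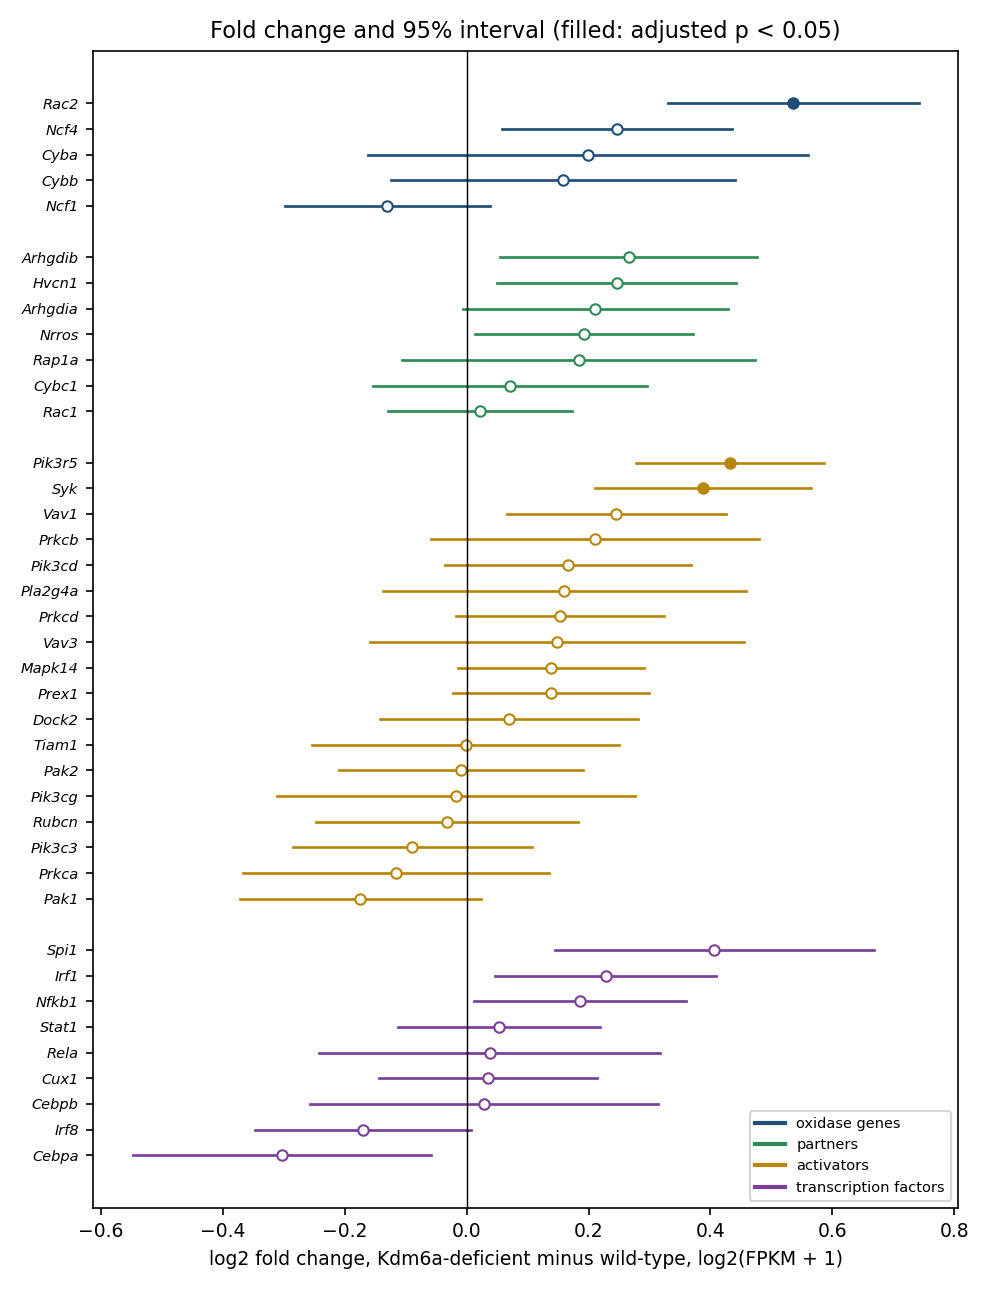
Log2 fold change (horizontal axis, Kdm6a-deficient minus wild-type, from log2(FPKM + 1)) with its 95% interval from limma for the 5 oxidase genes, 7 partners, 18 activators and 9 transcription factors, filled where the adjusted p was under 0.05. Rac2 at 0.54, Pik3r5 at 0.43 and Syk at 0.39 are filled, all partners lie above 0 (Rac1 turned below it under quantile normalization), and the transcription factors lie on both sides from Cebpa at −0.30 to Spi1 at 0.41.

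Downstream of superoxide, 1 of 13 tested genes for enzymes that use or remove it or hydrogen peroxide, with Nos2, was called higher and 2 lower. The median log2 fold change was 0.11. Over all tested genes 1.73% were called higher and 2.18% lower, with a median of 0.0048. Sod2, the mitochondrial superoxide dismutase, was at 175 and 173 FPKM in wild-type and 218, 215 and 227 FPKM in Kdm6a-deficient BMDMs (log2 fold change 0.34, SE 0.068, adjusted p = 0.0439 from limma). Sod3, the secreted dismutase, went the other way, at 134 and 142 FPKM in wild-type and 102, 111 and 94.7 FPKM in Kdm6a-deficient BMDMs (log2 fold change −0.42, SE 0.086, adjusted p = 0.0443 from limma). Both calls stood near the threshold. That of Sod2 was lost in 6 of 12 alternatives (adjusted p 0.0536 to 0.409) and that of Sod3 in 5 of 12 (0.0801 to 0.356), among them the loss of any single sample other than Kdm6a-deficient sample 2.

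Nos2, the inducible nitric oxide synthase, whose product reacts with superoxide, was at 2.0 and 2.27 FPKM in wild-type and 0.625, 0.597 and 0.587 FPKM in Kdm6a-deficient BMDMs. It fell by 0.97 on the log2 scale (SE 0.088, adjusted p = 0.00261 from limma). It was called in each of the 9 alternatives in which it was tested, with adjusted p up to 0.0235. Nos2 passed the filter only through the wild-type samples, being under 1 FPKM in every Kdm6a-deficient sample. It was therefore not tested without wild-type sample 1, without wild-type sample 3 or with 1 FPKM required in all 5 samples. How its call depends on either wild-type sample is thus not known. Nos2 is a well known target of LPS in mouse macrophages, and its level here was under 3 FPKM in all 5 samples, beside 173 to 227 FPKM for Sod2. The 9 enzymes that supply NADPH, all tested, gave no call in limma, with 1 at an unadjusted p under 0.05 and log2 fold changes from −0.18 to 0.18.

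The members were also set beside 7114 genes whose mean FPKM was 5 or higher, to find those whose deviations over the 5 samples were nearest to theirs, by the root mean square difference in log2(FPKM + 1). For Rac2 they were Pnp, a purine nucleoside phosphorylase (0.021), Bcl2a1b, an anti-apoptotic Bcl2 relative (0.033), and Siglece, an inhibitory sialic acid receptor (0.039). All 3 were called higher, with log2 fold changes of 0.52, 0.56 and 0.54, and Bcl2a1b is uncertain since it has near-identical copies. Genes chosen in this way have fold changes and an order of samples near those of the member by that choice. Neither is therefore a separate result, here or for the other members. For Cyba the nearest were Ppdpf, Dok1 and Tpgs1 (0.0079 to 0.024), which like Cyba had their highest value in Kdm6a-deficient sample 2. For Cybb they were Gng12, Fmnl2 and Helz2 (0.014 to 0.024), which had their lowest value there. For Ncf4 they were Hsbp1, Mrpl21 and Vav1, the exchange factor for Rac proteins (0.0083 to 0.014). For Ncf1 they were Cdk16, Tsc22d3 and Ephx1 (0.012 to 0.014). No other member of the oxidase was among the 3 nearest genes of any member. With 3 genes kept out of 7114, this absence does not show whether the members vary together.

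Markers of other cells moved in part with the genotype. Beside the counts that follow, 1.73% of all tested genes were called higher and 2.18% lower. Of 12 tested neutrophil markers, cells that also hold much oxidase, 1 was called higher, Ctsg, and none lower, and the sum of the list was 2055 to 2173 FPKM in wild-type and 2066 to 2643 FPKM in Kdm6a-deficient BMDMs. Ctsg passed the filter only through the Kdm6a-deficient samples, at 1.13 to 1.46 FPKM, and was at 0.331 and 0.649 FPKM in wild-type. With 1 FPKM required in all 5 samples Ctsg was not tested, and none of the 10 tested markers was called. Ctsg was lost in 8 alternatives (adjusted p 0.057 to 0.145), the list also holds Mpo, which is counted among the peroxide enzymes too, and Ly6g, a surface marker of neutrophils, was at 0.0731 to 0.199 FPKM in the 5 samples. Other markers of the list were abundant in both groups, named here after their values were seen. S100a9 was at 847 to 1195 FPKM and S100a8 at 699 to 888 FPKM, both highest in Kdm6a-deficient sample 2, and the granule genes Ngp, Ltf and Camp were at 325 to 356, 73.1 to 83.2 and 52.2 to 75.9 FPKM. None of these 5 genes was called in limma (adjusted p 0.505 to 0.995). Of 5 tested monocyte markers 2 were called higher, Ly6c2 and Plac8, and none lower, with a sum of 148 to 149 FPKM in wild-type and 160 to 172 FPKM in Kdm6a-deficient BMDMs. The 3 not called, named after their values were seen, were F13a1, Ccr2 and Cd177, at log2 fold changes of −0.064, 0.33 and 0.095. F13a1 was the most abundant of the list, at 82.6 to 94.3 FPKM in the 5 samples. The call of Ly6c2 was lost in 4 of 12 alternatives and that of Plac8 in 6, among them, for both genes, those that left out the filter, either wild-type sample or Kdm6a-deficient sample 3. Of 8 tested stromal cell markers 4 were lower, among them Dcn and Lum at log2 fold changes of −1.34 and −0.88, and 1, Cxcl12, was higher (0.54). The sums were 2839 to 3086 FPKM in wild-type and 2144 to 2146 FPKM in Kdm6a-deficient BMDMs. Lum passed the filter only through the wild-type samples, at a mean of 1.98 FPKM. It was at 0.496 to 0.864 FPKM in Kdm6a-deficient BMDMs. With 1 FPKM required in all 5 samples Lum was not tested, and 3 of the 7 tested stromal markers were lower. Beside Dcn and Lum, the lower genes, named after their values were seen, were Col1a1 and Col1a2. Col1a1 was at 991 and 1114 FPKM in wild-type and 653 to 738 FPKM in Kdm6a-deficient BMDMs. Col1a2 was at 1275 and 1378 FPKM in wild-type and 841 to 880 FPKM in Kdm6a-deficient BMDMs. Adgre1 was at 736 and 745 FPKM in wild-type. Leaving out either wild-type sample took the lower stromal markers from 4 to 1, with Lum no longer tested rather than losing its call. Leaving out Kdm6a-deficient sample 3 took them to 2. Each of these also cost Cxcl12 its call. Of 3 tested endothelial and 4 tested osteoclast markers, 1 and 3 were lower, Cdh5 at a log2 fold change of −0.95 and Ctsk, Mmp9 and Dcstamp at −0.60, −0.50 and −0.49. Leaving out wild-type sample 3 or Kdm6a-deficient sample 3 took the osteoclast count to 0 or 1. Of 3 B cell markers and 1 eosinophil marker none was called in limma, while no dendritic, T or NK cell marker reached the filter. The part of these cells in the levels of the oxidase genes was not tested.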

How the data were processed

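RNA-Seq of 5 BMDM samples was used, grouped by genotype and replicate as the sample labels give them. Mapping was with TopHat, and the authors deposited FPKM per gene and sample from Cufflinks, according to the methods. Bowtie 0.12.2 and the builds mm8 and mm9 are listed in the submitters' processing notes without their roles. No source used here gives the other versions. Strand is not stated, and the labels and the paper name different library kits. The authors also deposited a signal per genotype, an average over samples of counts that DESeq had scaled by size factors. Its steps of 1 read come in 3 sizes for wild-type, and 1 of these matches no sample held here. The columns with the authors' own comparison hold a fold change, a p-value and an adjusted p-value and were not used. Every per-sample column was used.

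The design foresaw counts or FPKM, and the values were FPKM, so log2(FPKM + 1) was fitted with limma 3.58.1 (limma-trend, R 4.3.3) over genes that reached 1 FPKM in at least 2 samples, with no covariate and Benjamini-Hochberg adjustment over all 10893. On this scale fold changes of low genes come out too small. Without counts per sample no interval for counting error was made. The fit was tested on simulated data with 100 changed genes out of 10893. It recovered 80 of them at a log2 change of 1 and 41 at 0.5, with 3 false calls each time. A gene that was not called may thus still differ. Lists were described by counts and medians only. The members and lists were chosen with earlier results of these data known. Genes named were the members, Kdm6a, Lyz2, Rac1, called genes of each list (up to 6, or up to 3 of a marker list), Adgre1, Itgam and the 3 nearest patterns of each member, with others marked where they appear. Of the genes that this rule names, 1 is not reported here and was left out of its list.

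Symbols are those deposited, matched by GeneID for 21727 of 21878 genes to RefSeq (GRCm38.p6), with 27 symbols that had been turned into dates repaired and Cybc1 taken from its older name. Transcript lengths (for 99.5% of tested genes) and the Rac sequences are from GENCODE vM21, the coding sequence being the longest open reading frame. The files' build is not settled, so no coordinates are printed. The alternatives tried were no filter, a filter of 1 FPKM in all 5 samples, a pseudocount of 0.1 FPKM, scaling by the median of ratios, quantile normalization, a replicate block, each sample left out and, added after the data were seen, removal of each sample's lowess trend (span 0.3) with transcript length. Python 3.11.15, pandas 2.3.3, numpy 2.4.6 and matplotlib 3.10.9 were also used.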

Additional observations from a re-analysis of the deposited data

How the results depend on the processing

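Directions of the log2 fold changes of all 5 oxidase genes were kept in all 12 alternatives, with ranges of 0.088 to 0.27 for Cybb, 0.037 to 0.28 for Cyba, −0.19 to −0.075 for Ncf1, 0.19 to 0.28 for Ncf4 and 0.47 to 0.58 for Rac2, which limma called in 9 of 12. When 1 sample was left out at a time, all genes called ran from 81 to 678 (higher 46 to 281, lower 35 to 397), oxidase genes called from 0 to 2, the log2 fold change of Cybb from 0.088 to 0.27 and that of Rac2 from 0.47 to 0.58. With the length trend removed, 808 genes were called, 357 higher and 451 lower. Quantile normalization turned Rac1 to −0.036. The cause of these changes was not tested. Where 1 wild-type sample was left out, the other was assumed to vary like the Kdm6a-deficient samples. The median of all genes ran from −0.0052 to 0.011 over the alternatives.

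Replicate numbers 1 and 3 occur in both groups, and no label says what a number marks. Deviations from the group means correlated at 0.43 between the samples numbered 1 and at −0.14 between those numbered 3. With 2 wild-type samples, the deviations of samples 1 and 3 are exact opposites, so these values are not independent. They cannot decide whether samples of the same number share anything more. With the number as a replicate block, which leaves Kdm6a-deficient sample 2 alone in its block and out of the estimate, 996 genes were called (436 higher, 560 lower), as were 2 oxidase genes, Rac2 (0.47, adjusted p = 0.00451) and Cybb (0.27, adjusted p = 0.0221 from limma). Of the 9 transcription factors 1 was then higher, Spi1 (0.32, adjusted p = 0.0138), and 1 lower.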
